A study of Mus musculus with 18 samples.

Results

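Asparaginase (ASNase) given to mice that lack the transcription factor ATF4 changed the liver transcriptome in both directions: 699 of 9485 eligible genes were called, 260 of them higher and 439 lower than after phosphate buffered saline (PBS). Genes of the cytosolic ribosome, of the acute phase and NF-kB response and of growth arrest lay among the rises, and genes of cholesterol synthesis, fatty acid oxidation, bile acid handling and drug metabolism lay among the falls. Several textbook targets of ATF4, Trib3, Asns, Atf3 and Chac1 among them, rose in these Atf4-/- livers. The comparison covers 6 of the 18 libraries of the series, 3 from Atf4-/- mice given ASNase and 3 from Atf4-/- mice given PBS. The groups were found by their genotype and treatment labels, and genes by the pooled expression value of each group.

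Poly-A RNA of whole liver was sequenced from mice on the C57BL/6J background that were 8 to 16 weeks old by their labels. The study's methods give a narrower age range that also starts at 8 weeks. The Atf4-/- ASNase group received L-asparaginase (Elspar, the enzyme of Escherichia coli, which also splits glutamine) by intraperitoneal injection at 3 IU per g body weight once a day for 8 days, and the Atf4-/- PBS group received the same volume of PBS. Livers were taken 7.5 h after the last injection by the labels, and about 8 h after it by the study's methods. Both Atf4-/- groups carried the same Atf4 deletion and held 2 males and 1 female. The deletion was in every cell of the animal, so a value from liver cannot be ascribed to loss of ATF4 in hepatocytes alone. Wild type (WT) mice and mice with a deletion of Gcn2 (Gcn2-/-), the eIF2 kinase that senses uncharged tRNA, received the same treatments, with 3 mice in each group, and are used here only to show where the Atf4-/- response differed. Their groups held both sexes, and in each of these strains the number of males differed between PBS and ASNase, with 1 male in WT PBS and 2 in WT ASNase.

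The deposited table gives each gene 1 FPKM value per group (mapped fragments scaled to transcript length and to the size of the library, so that levels of different genes can be compared), estimated over the 3 libraries together, with a lower and an upper confidence bound and a status flag. Values of single mice are not analysed here, so there is no SD between mice and no p-value. The bounds stand in as the error, and the distance from a value to its bound had a median of 52.3% of the value in the PBS group and 54.2% in the ASNase group. A gene was eligible when the status was OK and the FPKM above 0 in both groups and over 3 in at least 1 of them, which kept 9485 of 37303 genes. It was called, and is described as having risen or fallen, when the difference of log2(FPKM + 0.1) between ASNase and PBS passed 1.5 in size (2.83-fold) and the intervals did not overlap. At the edge of this rule, Bst2, an interferon-induced antiviral membrane protein, lay just inside the fold limit and was called (196 and 69.2 FPKM). Fgf21 (1.17 and 3.5 FPKM) lay just short of it, and its intervals (0.126 to 2.22 and 1.03 to 5.97) overlapped as well. In the stress target list below Psph was eligible with 3.57 FPKM after ASNase while Jdp2 with 2.21 was not.

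Asparaginase removes circulating asparagine and, in part, glutamine. When an amino acid runs short, uncharged tRNA activates GCN2, which phosphorylates the initiation factor eIF2. General translation then falls while translation of ATF4 mRNA rises, and ATF4 with partner bZIP proteins switches on genes for amino acid synthesis, transport, tRNA charging and stress adaptation, a programme called the integrated stress response. PERK, an eIF2 kinase in the membrane of the endoplasmic reticulum (ER), feeds into the same programme when proteins misfold in the ER. Liver is the main site of plasma protein, bile acid and cholesterol synthesis and of drug metabolism, and is a site of toxicity of the drug.

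The Atf4 gene itself was listed at 32.3 FPKM (interval 19.1 to 45.5) in Atf4-/- PBS and at 29.3 FPKM (17.3 to 41.2) in Atf4-/- ASNase, against 50.4 and 63.1 in WT and 60 and 68.1 in Gcn2-/-. The intervals of all these values overlap with those of Atf4-/-. A gene-level FPKM counts reads on all exons and flanks of the locus (Atf4, ENSMUSG00000042406, chr15:80255184-80257541, + strand, GRCm38), and the position of the deletion within it is not given in the sources used here, so these levels alone do not check the genotype. The study examined the deletion by read density and by RT-qPCR, and it reports from the read density that Atf4 was absent in Atf4-/- mice. Those data are not analysed here.

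Of the eligible genes, 7.37% were called (2.74% higher, 4.63% lower), and the median difference over all of them was 0.08, with 5th and 95th percentiles at -1.82 and 1.55. The response of the other strains was smaller by the same rule. WT had 80 called genes of 9084 (0.881%; 69 or 0.76% higher and 11 or 0.121% lower) with percentiles at -0.51 and 0.56, and Gcn2-/- had 340 of 9218 (3.69%; 144 or 1.56% higher and 196 or 2.13% lower) with percentiles at -1.26 and 1.16. The plot of PBS against ASNase levels shows the called genes of Atf4-/- liver over most of the range of expression.

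**Figure D1:**
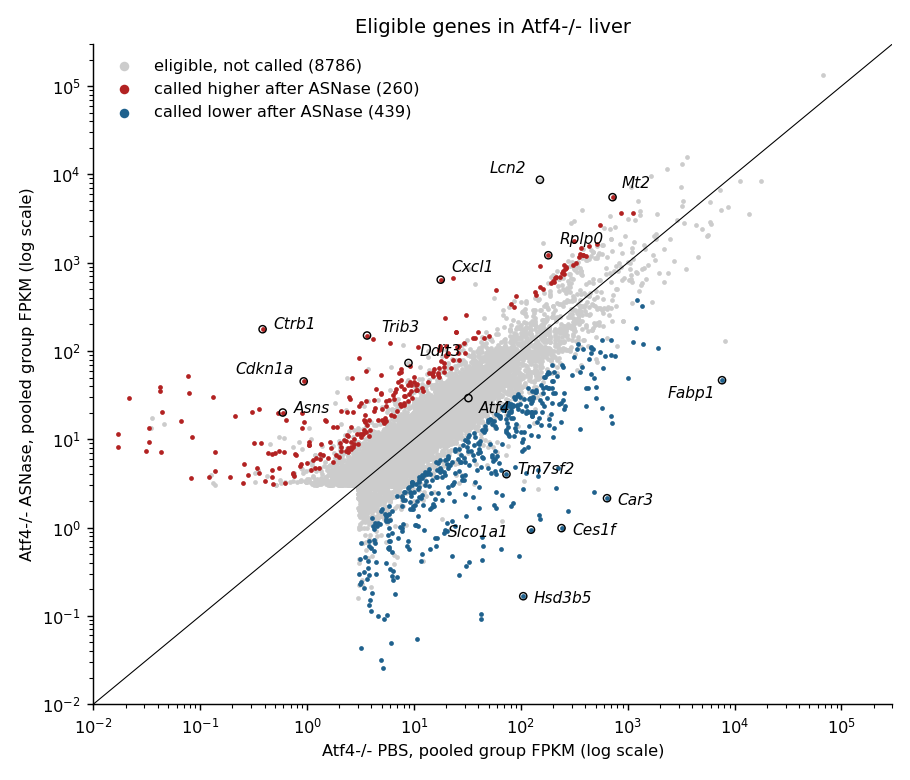
Pooled FPKM of each eligible gene in Atf4-/- liver after PBS (horizontal, log scale) and after ASNase (vertical, log scale), with the line of equal values. Genes called higher (260) and called lower (439) are coloured and 16 genes are named, among them Hsd3b5 and Car3 far below the line and Ctrb1 and Cdkn1a far above it.

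Some targets of the integrated stress response rose in Atf4-/- liver. Of 36 listed targets 22 were eligible, 7 were called higher and 0 lower, with a median difference of 1.21 beside 0.08 over all eligible genes. The list's median was 0.53 in WT, where 2 of 24 eligible members were called higher, and 0.32 in Gcn2-/-, where 1 of 22 was called higher and 1 lower. Of these targets, 5 of 24 responded more in Atf4-/- than in WT and 8 of 23 more than in Gcn2-/-, meaning that the responses differed by over 1.5 log2 units and by more than the combined error of the 4 intervals. Over all genes with values, 2.28% of 9698 were higher and 4.28% lower by that rule against WT, and 1.33% of 9684 higher and 2.31% lower against Gcn2-/-, and no target was lower in either comparison.

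Trib3, a pseudokinase that binds AKT and feeds back on ATF4 and CHOP, stood at 3.63 FPKM (1.72 to 5.54) after PBS and 150 FPKM (60.2 to 239) after ASNase, a difference of 5.33. In WT liver Trib3 rose by less, from 5.46 to 19.5 FPKM, and in Gcn2-/- it was 7.52 and 3.39. The excess over WT was 3.51 ± 1.62 (combined interval error) and over Gcn2-/- 6.45 ± 1.73. Asns, the enzyme that makes asparagine from aspartate and glutamine, rose from 0.591 FPKM (0 to 1.7) after PBS to 20.1 FPKM (7.27 to 32.9) after ASNase. Its difference of 4.87 exceeded that in Gcn2-/- by 4.56 ± 4.21. Against the 1.66 of WT the excess of Asns was 3.21 ± 4.11, within the error.

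Atf3, a bZIP repressor induced by many stresses, rose from 0.896 FPKM (0.218 to 1.57) to 13.3 (6.19 to 20.4). Chac1, which breaks down glutathione, rose from 3.06 FPKM (1.29 to 4.82) to 23.7 (12.3 to 35.2) and exceeded the response of both other strains. Nupr1, a small stress-induced chromatin protein, rose from 0.501 FPKM (0 to 1.09) to 7.07 (3.03 to 11.1). Atf5, a bZIP factor translated like ATF4, rose from 80 FPKM (42.7 to 117) to 339 (131 to 547), whereas it was 160 and 210 in WT and 143 and 88.4 in Gcn2-/-. Ddit4, an inhibitor of mTORC1, rose from 4.96 to 53.3 FPKM and was called in Gcn2-/- too, from 2.19 to 44. Other targets did not meet the rule. Ddit3, which encodes the death-linked factor CHOP, was at 8.87 FPKM (0 to 18.3) and 73.1 (4.79 to 141), and its wide intervals overlapped. Sesn2 stood at 2.53 and 5.97 FPKM, Gdf15 at 3.63 and 10.3, Ppp1r15a, the eIF2 phosphatase subunit, at 8.6 and 20.1, and Eif4ebp1, the translational brake 4E-BP1, at 30.9 and 64.3.

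Fgf21, the fasting and stress hormone, was called in opposite directions in WT and Gcn2-/- and was not called in Atf4-/-. It was 1.17 FPKM (0.126 to 2.22) and 3.5 (1.03 to 5.97) in Atf4-/-, rose from 2.14 to 29.3 in WT, and fell from 8.31 to 0.782 in Gcn2-/-. Against WT the Atf4-/- response of Fgf21 was -2.21 ± 2.64, within the error, and against Gcn2-/- it was 4.75 ± 3.11. Enzymes of serine synthesis stayed low, with Phgdh at 0.129 and 0.187 FPKM and Psat1 at 0.111 and 1.28, and among 31 listed amino acid transporters 19 were eligible and 0 were called, at a median of -0.01. Slc6a9, a glycine transporter and an ATF4 target, was 15.3 FPKM (3.04 to 27.5) and 2.51 (0 to 5.48).

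ATF4 and C/EBP proteins bind a composite element of the letters TGATGNAA. It was looked for on both strands in RefSeq promoter windows of 300 bases (250 before to 50 after the start, GRCm38.p6). It was present in 12 of the 32 targets with a window (37.5%), against 4.51% of all 27025 genes and 2.73% of the 6739 eligible genes with one. Among called genes the share was 8.19% of 171 that rose and 3.44% of 291 that fell. The windows of 4 called targets and of Fgf21 are shown because they carry these letters and because their genes responded so differently; the element is in capitals, and runs 5′ to 3′ on the strand of the gene. Asns is at chr6:7693160-7693459 (- strand), Trib3 at chr2:152344011-152344310 (- strand), Chac1 at chr2:119350992-119351291 (+ strand), Atf3 at chr1:191183284-191183583 (- strand) and Fgf21 at chr7:45615441-45615740 (- strand).
Asns: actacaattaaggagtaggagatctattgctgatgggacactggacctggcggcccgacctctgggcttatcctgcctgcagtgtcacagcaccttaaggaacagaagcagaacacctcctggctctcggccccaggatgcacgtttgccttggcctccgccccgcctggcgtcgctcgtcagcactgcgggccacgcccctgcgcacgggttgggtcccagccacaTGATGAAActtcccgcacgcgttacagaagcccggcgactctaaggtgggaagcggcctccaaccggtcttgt
Trib3: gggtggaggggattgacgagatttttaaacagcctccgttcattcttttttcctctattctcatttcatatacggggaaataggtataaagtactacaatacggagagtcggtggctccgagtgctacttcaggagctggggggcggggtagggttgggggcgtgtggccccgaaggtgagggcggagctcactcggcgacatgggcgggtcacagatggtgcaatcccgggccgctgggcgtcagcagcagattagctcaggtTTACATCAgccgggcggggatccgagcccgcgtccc
Chac1: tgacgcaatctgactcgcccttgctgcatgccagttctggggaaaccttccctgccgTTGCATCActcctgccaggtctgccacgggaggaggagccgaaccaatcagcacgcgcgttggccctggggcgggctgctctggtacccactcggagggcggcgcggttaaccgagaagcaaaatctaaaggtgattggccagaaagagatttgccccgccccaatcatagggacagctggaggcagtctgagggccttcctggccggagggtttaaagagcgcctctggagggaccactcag
Atf3: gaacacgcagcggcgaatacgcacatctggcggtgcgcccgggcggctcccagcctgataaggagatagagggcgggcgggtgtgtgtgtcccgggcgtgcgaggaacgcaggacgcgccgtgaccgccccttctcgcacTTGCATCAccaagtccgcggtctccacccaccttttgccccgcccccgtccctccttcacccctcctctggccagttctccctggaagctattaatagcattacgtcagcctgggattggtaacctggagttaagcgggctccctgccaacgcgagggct
Fgf21: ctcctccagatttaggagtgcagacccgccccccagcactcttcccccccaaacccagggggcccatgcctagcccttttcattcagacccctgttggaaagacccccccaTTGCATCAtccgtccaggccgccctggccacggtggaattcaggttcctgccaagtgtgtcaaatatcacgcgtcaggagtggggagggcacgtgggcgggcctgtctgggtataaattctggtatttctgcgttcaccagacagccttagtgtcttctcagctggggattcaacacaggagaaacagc
Of these 5, only in Asns do the letters stand on the gene's own strand, and in Chac1, Atf3 and Fgf21 the matched stretch is the same TTGCATCA on the opposite strand. A match of letters does not show that a protein bound there.

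Cytosolic ribosomal protein genes were among those that rose. Of 86 listed genes 83 were eligible, all 83 had a positive difference (0.13 to 2.75, median 1.58), and 30 were called higher and 0 lower. In WT and Gcn2-/- 0 members were called and the medians were -0.01 and 0.07. The Atf4-/- response was higher than that of WT for 36 and than that of Gcn2-/- for 30 of them. Rplp0, of the ribosomal stalk, rose from 181 FPKM (92.8 to 268) to 1214 (338 to 2089), while it was 398 and 460 in WT and 426 and 516 in Gcn2-/-. Rpl12, beside the stalk, rose from 317 to 1760 FPKM and Rps12 from 546 to 2672. Rpl13a, at 1256 FPKM (0 to 2605) and 4984 (0 to 11592), had intervals too wide for a call. Many ribosomal protein genes have processed pseudogenes of near-identical sequence, and reads may be split between copies. Scaling the groups by a median ratio in place of the deposited scale left the list's median at 1.52.

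Other genes of translation moved the same way in part. Among 46 genes of ribosome biogenesis 6 rose and 0 fell (median 1.22): Myc, the factor that drives ribosome production, from 1.75 to 13.8 FPKM, Nop58, of the box C/D snoRNP, from 8.72 to 41.2, Gar1, of the H/ACA snoRNP, from 9.25 to 44.2, and Rrp12, Rrs1 and Ddx21. Of 43 initiation and elongation factors 3 rose and 0 fell (median 0.79). That is 6.98% called, near the 7.37% of all eligible genes, of which 2.74% were called higher. The 3 were Eif1a, from 26.2 to 113 FPKM, Eef1b2, from 364 to 1456, and Eif2b3, of the eIF2 exchange factor, from 5.51 to 16. The call of Eef1b2 was lost at a log2 limit of 2, and that of Eif2b3 also with a pseudocount of 1 and with median-ratio scaling. The 20 cytosolic aminoacyl-tRNA synthetases had a median of 0.88 with 0 called, Vars at 9.24 and 32.8 FPKM having the largest difference. Mitochondrial counterparts stood apart from these: 0 of 76 mitochondrial ribosomal proteins and 0 of 76 subunits of oxidative phosphorylation were called, with medians of -0.02 and -0.46, and 8 eligible genes of mitochondrial DNA had a median of -0.67.

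Few genes of protein folding in the ER passed the rule. All 28 listed chaperones and folding enzymes were eligible, with a median of 0.75 (WT -0.22, Gcn2-/- 0.69). Positive differences were found for 26 of them (4 in WT, 26 in Gcn2-/-). The response of 4 was higher than in WT, beside 2.28% of all genes, and that of 0 was higher than in Gcn2-/-. Called were 7.14%, all of them rises, beside 7.37% of all eligible genes called either way and 2.74% called higher. These 2 genes, whose calls were lost at a log2 limit of 2, rose: Creld2, an ER-resident folding factor, from 15 FPKM (8.57 to 21.5) to 52.4 (28.1 to 76.8), and Sdf2l1, a part of the chaperone complex, from 19.1 to 65.8. Both rose to a like extent in Gcn2-/-, and in WT they were 29.3 and 16.1, and 25 and 11.2. Hspa5, the main ER chaperone BiP, was 191 FPKM (81.6 to 300) and 691 (176 to 1207), a difference of 1.86 that was not called. It exceeded the -0.69 of WT by 2.55 ± 2.23. Manf stood at 67.7 and 290 FPKM, Hyou1 at 26.3 and 79.5 and Xbp1, the factor spliced by IRE1, at 101 and 360, all uncalled. Derl3, of ER-associated degradation, rose from 3.12 to 11.4 FPKM. Creb3l3, a membrane-bound bZIP factor of hepatocytes, fell from 125 FPKM (58.2 to 192) to 26 (14 to 38.1), more than in either other strain. Among 37 eligible proteasome subunits and 21 cytosolic heat shock chaperones 0 were called.

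The ER stress response element, CCAAT followed by CCACG after 9 bases of any kind and searched on both strands, was in 7 of 21 chaperone promoters with a window (33.3%) and in 0.137% of all. Hspa5 (chr2:34771840-34772139, + strand) and Creld2 (chr15:88819396-88819695, + strand) are shown as an uncalled and a called member, with the element in capitals, on the opposite strand in Creld2.
Hspa5: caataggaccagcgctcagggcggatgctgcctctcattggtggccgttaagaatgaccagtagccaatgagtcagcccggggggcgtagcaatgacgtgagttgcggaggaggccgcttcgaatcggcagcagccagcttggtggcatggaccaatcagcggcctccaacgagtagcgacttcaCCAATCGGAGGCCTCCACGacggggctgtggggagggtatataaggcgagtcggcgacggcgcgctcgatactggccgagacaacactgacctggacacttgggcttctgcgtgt
Creld2: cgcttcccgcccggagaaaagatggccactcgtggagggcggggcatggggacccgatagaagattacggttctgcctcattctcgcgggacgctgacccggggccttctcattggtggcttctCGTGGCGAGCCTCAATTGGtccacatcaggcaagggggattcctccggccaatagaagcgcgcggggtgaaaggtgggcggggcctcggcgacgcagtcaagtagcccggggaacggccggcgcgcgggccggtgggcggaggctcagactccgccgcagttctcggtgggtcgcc
Of the 171 genes called higher that have a window, 1.17% carry these letters.

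Some growth arrest and immediate early genes rose. Of 19 eligible p53 and growth arrest targets 5 rose and 0 fell (median 1.03, WT -0.00, Gcn2-/- 0.78). Cdkn1a, the cyclin-dependent kinase inhibitor p21, rose from 0.928 FPKM (0.224 to 1.63) to 45.2 (25.1 to 65.4), and rose to a like level in Gcn2-/-, from 1.08 to 42.6. Gadd45a rose from 3.58 to 60 FPKM, where Gcn2-/- had 7.33 and 2.57. Btg2, Gadd45g and Trp53inp1 were the others. Among 18 immediate early genes 7 rose, including Ier3 from 1.47 to 16.3 FPKM and Junb from 20.7 to 92.6. Ccnd1, the G1 cyclin, fell from 20.1 FPKM (5.35 to 34.9) to 1.13 (0.236 to 2.02), more than in both other strains. The clock genes Arntl (0.865 to 5 FPKM) and Cry1 (2.05 to 8.96) rose in Atf4-/- and in Gcn2-/-.

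Some genes of amino acid breakdown fell. Of 39 eligible enzymes 9 fell and 0 rose (median -1.07, WT -0.12, Gcn2-/- -0.75), among them Uroc1, of histidine breakdown, from 101 FPKM (52.7 to 149) to 11.9 (6.49 to 17.4), and Prodh2, of hydroxyproline breakdown, from 118 to 14. In the urea cycle Otc fell from 239 FPKM (118 to 360) to 15.7 (7.21 to 24.2), and its response minus that of WT was -3.64 ± 1.65 and minus that of Gcn2-/- -2.11 ± 1.67. The mitochondrial carrier Slc25a13 fell from 75.8 to 25.9, while Cps1, the entry enzyme, was 791 FPKM (117 to 1465) and 498 (57.1 to 940). Gamt, which completes creatine synthesis, fell from 144 to 3.82 FPKM. Glul, glutamine synthetase, was 639 (0 to 1378) and 140 (13.4 to 266), with overlapping intervals.

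Many genes of cholesterol synthesis and LDL uptake fell. All 27 listed genes were eligible, all had negative differences (-4.16 to -0.19, median -1.81), and 12 fell and 0 rose. WT had 0 called members and a median of -0.50. Gcn2-/- had a median of 0.15. The Atf4-/- response was lower than that of Gcn2-/- for 10 members and than that of WT for 6, beside 2.31% and 4.28% of all genes. Tm7sf2, a sterol reductase, fell from 73.3 FPKM (35.4 to 111) to 4.02 (0 to 9.57), Idi1, isopentenyl diphosphate isomerase, from 57.3 to 7.38, and Nsdhl from 26.5 to 4.37. Insig1, which holds SREBP in the ER and is a target of SREBP, fell from 128 FPKM (66.8 to 189) to 20.4 (11.9 to 28.9). Hmgcs1 fell from 74.6 FPKM (38.6 to 111) to 15.1 (8.86 to 21.4), and its value in Gcn2-/- was 91.1 and 158. Sqle, squalene epoxidase, was 29.8 and 25.2 FPKM and the regulator Srebf2 11 and 9.54, both uncalled. Soat2, which esterifies cholesterol, moved the other way, from 17.2 FPKM (10.1 to 24.2) to 103 (57 to 148), above the response of both other strains.

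Some genes of fat oxidation and ketone production fell too. Among 32 eligible genes of fatty acid beta-oxidation 14 fell and 1, Acot2, rose (median -1.52, WT -0.04, Gcn2-/- -0.95). Fabp1, the liver fatty acid binding protein, fell from 7629 FPKM (1684 to 13574) to 46.6 (25.9 to 67.4), a difference of -7.35. It was 10830 and 7854 in WT and 14306 and 1358 in Gcn2-/-. The peroxisomal thiolase Acaa1b fell from 277 to 1.55 FPKM, the acyl-CoA thioesterases Acot3 and Acot1 from 26.5 to 0.291 and from 11.6 to 0.416, and Cpt2, of mitochondrial import, from 57.7 to 14.1. Of 6 ketone body genes 3 fell, among them Bdh1, which makes beta-hydroxybutyrate, from 146 FPKM (59.6 to 232) to 4.48 (1.77 to 7.18). Ppara, the nuclear receptor that drives many of these genes, was 43.8 FPKM (9.53 to 78.1) and 8.52 (1.68 to 15.4), not called. Of 24 genes of fatty acid synthesis 4 fell and 0 rose (median -1.34, WT -0.10, Gcn2-/- -0.76). That is 16.7% called lower, beside 4.63% of all eligible genes. The 4 were the desaturases Fads1 and Fads2 and the elongases Elovl2 and Elovl3. In Gcn2-/- 5 of 24 fell, Fads1, Fads2 and Elovl2 among them, and Elovl3 was not eligible. For Fads1, Fads2 and Elovl2 the responses of the deletions differed by less than the error. The lipid uptake genes Lpl (7.48 to 40.2 FPKM) and Cd36 (17.2 to 64.4) rose, both above the response of either other strain.

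**Figure D2:**
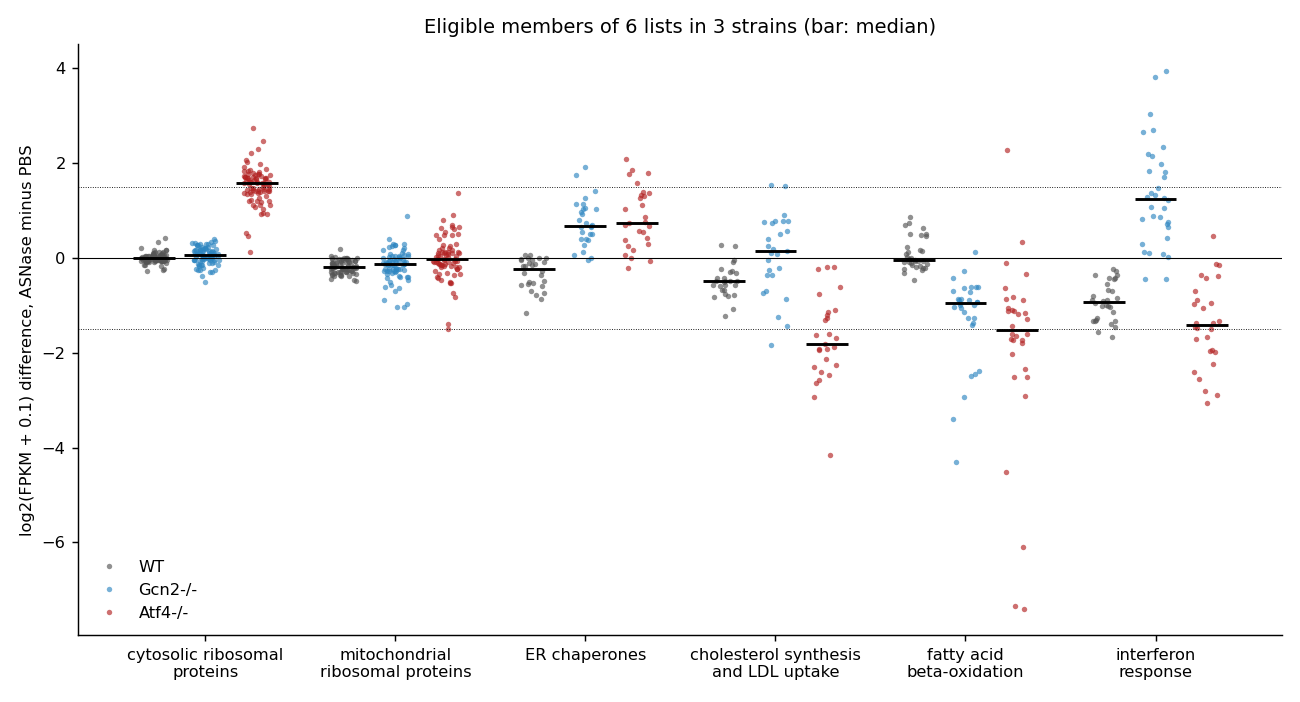
Difference of log2(FPKM + 0.1), ASNase minus PBS, for each eligible member of 6 lists in WT (grey), Gcn2-/- (blue) and Atf4-/- (red) liver, with bars at the medians and dotted lines at 1.5 and -1.5. In Atf4-/- the cytosolic ribosomal proteins lie above 0 (median 1.58) and the cholesterol genes below 0 (median -1.81), while the mitochondrial ribosomal proteins centre on -0.02.

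Some bile acid genes and hepatocyte transporters fell. Of 26 eligible bile acid genes 7 fell and 1 rose (median -1.81, WT -0.06, Gcn2-/- -1.11). Cyp8b1, the sterol 12-alpha hydroxylase, fell from 56.3 FPKM (31.1 to 81.6) to 1.81 (0.67 to 2.94), and Nr0b2, the repressor SHP, from 24.3 to 1.03. The organic anion transporter Slco1a1 fell from 124 to 0.945 and the bile salt importer Slc10a1 from 384 to 106. Cyp7a1, the rate-limiting enzyme of bile acid synthesis, was 154 FPKM (0 to 575) and 32.5 (0 to 114), with intervals that reach 0. Cyp39a1, an oxysterol hydroxylase, rose from 5.47 to 24.

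Drug-metabolizing families fell in most of their eligible members that were called. Counts of falls and rises were 11 and 2 of 31 in the Cyp2 family (median -1.72), 8 and 0 of 13 in the Cyp4 family (-2.71), 8 and 1 of 13 carboxylesterases (-2.98), 8 and 1 of 25 UDP-glucuronosyltransferases and sulfotransferases (-0.93), and 10 and 2 of 28 glutathione enzymes (-1.43). In WT the medians of these lists lay between -0.19 and -0.10 and in Gcn2-/- between -1.84 and -0.99. Ces1f fell from 240 FPKM (91.3 to 389) to 0.984 (0 to 2.17), Ces3a from 707 to 15.4, Cyp4a12a from 42 to 0.106 and Cyp2c69 from 153 to 1.26. Cyp1a2, a caffeine-oxidizing enzyme of pericentral hepatocytes, fell from 256 to 23.8, Adh1, alcohol dehydrogenase, from 1380 to 119, and Gstp1, a glutathione transferase, from 1123 to 127. Cyp2b10, a target of the receptor CAR, rose from 2.63 FPKM (0.867 to 4.39) to 49.1 (23 to 75.2), the sulfotransferase Sult1e1 from 0.943 to 15.8, and the plasma peroxidase Gpx3 from 4.24 to 28. Members of these families resemble one another in sequence, so reads may be divided among them. Pericentral and periportal hepatocyte genes both fell: 5 of 18 pericentral (median -1.96) and 3 of 18 periportal (median -1.05), with 0 rising in either, as for Cyp2f2, which fell from 506 to 29.2.

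**Figure D3:**
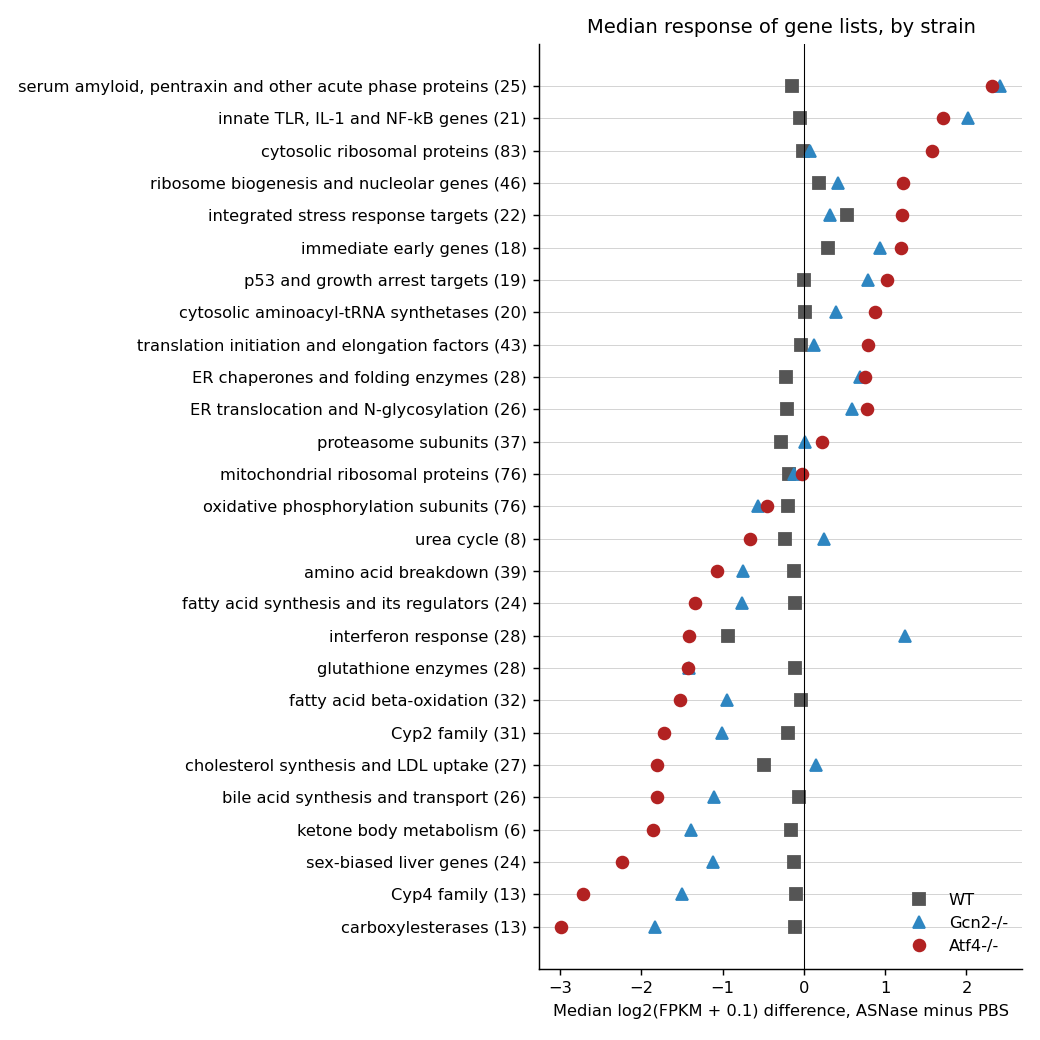
Median difference of log2(FPKM + 0.1), ASNase minus PBS, over the eligible members of 27 gene lists in WT (squares), Gcn2-/- (triangles) and Atf4-/- (circles) liver, with the number of members eligible in Atf4-/- in brackets. Acute phase genes stand highest in Atf4-/- (2.32) and carboxylesterases lowest (-2.98), and WT medians stay between -0.93 and 0.53.

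Some acute phase and NF-kB genes rose, and some interferon genes fell. Of 25 eligible acute phase genes 8 rose and 0 fell (median 2.32, WT -0.15, Gcn2-/- 2.42), and of 21 genes of the TLR, IL-1 and NF-kB pathways 9 rose and 0 fell (1.71, -0.05 and 2.02). Il1rn, the IL-1 receptor antagonist, rose from 4.1 FPKM (1.09 to 7.12) to 136 (27.9 to 244), Saa3 from 23.2 to 672, Cd14, the endotoxin co-receptor, from 3.05 to 82.6, and Tnfaip3, the NF-kB inhibitor A20, from 0.893 to 19.7. Neutrophil chemokines rose with them, Cxcl1 from 17.8 to 642 FPKM and Cxcl2 from 0.138 to 7.11. In WT these genes differed little, with Cxcl1 at 2.98 and 3.65 and Cd14 at 2.52 and 1.59, and in Gcn2-/- Cd14 rose from 2.07 to 57.1. The most abundant acute phase transcripts could not be called because their intervals are wide: Saa1 was 3622 FPKM (0 to 8547) and 15560 (0 to 43180), Lcn2 151 (48.8 to 253) and 8691 (0 to 19987), Orm1 1659 (430 to 2888) and 9641 (0 to 20086), and the iron hormone Hamp 2314 (1129 to 3499) and 11472 (3420 to 19524). In WT PBS, for comparison, Saa1 was 70.9 FPKM and Lcn2 10.1. Metallothionein Mt2 rose in all 3 strains, from 721 to 5518 FPKM in Atf4-/-, 27 to 300 in WT and 306 to 3444 in Gcn2-/-, and was the single gene called higher in each.

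The median response of interferon-stimulated genes differed in sign between the deletions. Of 28 eligible members 8 fell and 0 rose in Atf4-/- (median -1.41), 0 of 30 were called in WT (-0.93) and 4 of 34 rose in Gcn2-/- (1.24). For 18 members the response in Atf4-/- was lower than in Gcn2-/-. Ifit3 fell from 5.79 FPKM (2.99 to 8.59) to 0.605 (0.106 to 1.1), and was 6.57 and 23.6 in Gcn2-/-, Ifit1 fell from 3.74 to 0.415, and Usp18, which shuts off the interferon receptor, fell from 9.82 to 1.77. Of 22 genes of antigen presentation 4 fell, all of MHC class II: H2-Eb1 (22.7 to 1.2 FPKM), H2-Aa (35.9 to 2.25), H2-Ab1 (29.9 to 2.42) and the invariant chain Cd74 (86.6 to 11). The same 4 genes, of 21 eligible, also fell in Gcn2-/-, by 3.62, 3.30, 2.99 and 1.78 on the log2 scale in that order, and 0 of 22 were called in WT. All 22 had negative differences in WT, with a median of -0.71 beside -0.76 in Atf4-/- and 0.05 in Gcn2-/-. For the 4 class II genes the WT differences were -1.33, -1.31, -1.13 and -1.10 in the same order. These genes belong to B cells, dendritic cells and macrophages, and in whole liver fewer cells of a type and less RNA per cell cannot be told apart. The 5 B cell markers summed to 9.89 FPKM after PBS and 1.03 after ASNase in Atf4-/- (15.6 and 5.78 in WT, 9.34 and 1.16 in Gcn2-/-), and their part in the fall of class II genes was not tested.

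Plasma protein genes other than acute phase reactants were mixed. Of 27 complement genes 3 fell, C9 from 407 FPKM (140 to 674) to 23.8 (6.59 to 41.1), C6 from 108 to 12.2 and C8g from 361 to 57.2, the first 2 of them below the response of both other strains. The coagulation factor F11 fell from 42.4 FPKM to 4.89 and prekallikrein Klkb1 from 87.4 to 4.89. Fga, Fgb, Fgg, Hp and Hpx are listed at 0 after ASNase under the status HIDATA, which marks loci with too many fragments to be estimated, and no fold is given for them.

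Some genes of growth hormone action and of sex-biased expression fell. Of 18 eligible genes of the growth hormone and IGF axis 2 rose and 3 fell, with a median of -0.04. Igfals, the carrier subunit of circulating IGF-1, fell from 58.8 FPKM (32.9 to 84.7) to 2.52 (1.11 to 3.94) and Ghr, the growth hormone receptor, from 207 (72.7 to 341) to 33.7 (12.5 to 54.9), while Igf1 was 424 and 168, not called. The inhibitors of the receptor's signal Socs1 and Socs3 rose, Socs3 from 7.23 to 56.6 FPKM. Igfbp1 was 161 FPKM (78 to 245) and 1663 (203 to 3123), with overlapping intervals. Of 24 eligible sex-biased genes 10 fell and 0 rose (median -2.23, WT -0.12, Gcn2-/- -1.12), among them male-biased Hsd3b5, from 105 FPKM (48.2 to 162) to 0.167 (0 to 0.348), the largest called fall of the named genes, and female-biased Sult3a1, from 64.7 to 0.571. Sult3a1 fell in WT too, from 30.2 to 1.73, and its Atf4-/- response minus that of WT was -2.54 ± 2.99, within the error. In Gcn2-/- Sult3a1 was 13.5 and 3.93, not called. Both Atf4-/- groups held the same number of males, whereas the WT and Gcn2-/- pairs did not (WT PBS had 1 and WT ASNase 2 males), and the part of sex in the comparison between strains was not tested. Car3, a carbonic anhydrase, fell from 640 to 2.15. The urinary protein genes Mup21 (213 to 2.8 FPKM) and Mup20 (1940 to 107) fell, and 18 of the 21 listed Mup genes, which are near-identical copies, were not eligible.

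Among called genes with gene names, the largest rises included genes of the exocrine pancreas and of squamous epithelium. Ctrb1, chymotrypsinogen, rose from 0.383 FPKM (0 to 0.788) to 176 (32.6 to 320), Pnlip, pancreatic lipase, from 0.0416 to 39.3, the trypsinogens Try5 and Prss2 from 0.0764 to 51.4 and from 0.132 to 29.8, and the carboxypeptidase Cpa1 from 0.0656 to 16.2. Krt13 and Krt4, keratins of squamous epithelium, rose from 0.0423 to 35.3 and from 0.0169 to 11.3, and Vmn2r3, a vomeronasal receptor gene, rose from 0.0214 FPKM to 29.1. The 5 pancreatic acinar markers summed to 13.5 FPKM after PBS, with 2 of them listed at 0, and 85.8 after ASNase, with 0 at 0. In WT the sums were 11.9 and 22.2, with 2 of the 5 at 0 in both groups and Ctrb1 rising from 0.245 to 19.7. In Gcn2-/- they were 9.08 and 4.92, with 4 of the 5 at 0 in both groups, so that 1 marker made up each sum. Whether few of the pooled livers carried these transcripts cannot be read from 1 value per group, and their part in other results was not tested. Of 8 hepatocyte markers 6 were eligible and 0 called, with 2 positive and 4 negative differences (median -0.89, lowest -2.05). The markers with status OK summed to 12746 FPKM after PBS, where 2 were not OK, and to 7206 after ASNase, where 1 was not. Hnf4a, the factor that defines hepatocytes, was among the positive ones, at 165 and 213 FPKM. Alb, the albumin gene, is listed at 0 under the same status, HIDATA, in both groups.

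Markers of blood and resident cells moved as well. The 4 erythroid markers summed to 185 FPKM after PBS and 6.68 after ASNase, with none at 0 (217 and 126 in WT, 125 and 10.9 in Gcn2-/-), and the globin gene Hba-a1 fell from 43 to 0.791. Neutrophil markers summed to 16.3 and 6.57 FPKM over 6 genes, with 1 of them at 0 in each group, beside the rise of the neutrophil chemokines. The 6 Kupffer cell markers summed to 251 and 152: Marco, a scavenger receptor of macrophages, rose from 9.22 to 67.3, Cd5l fell from 91.6 to 31.3, and Clec4f, the defining marker, was 102 (37 to 167) and 30.1 (10.1 to 50.1). The 5 endothelial markers summed to 110 and 76.1 and the 5 stellate cell markers to 135 and 120, with 0 called in either list.

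Set beside the other strains, the Atf4-/- response shared more called genes with Gcn2-/- than with WT, and these comparisons share no control mice. Of the 260 genes called higher in Atf4-/-, 61 were called higher in Gcn2-/- (23.5% of the Atf4-/- genes and 42.4% of the 144 of Gcn2-/-), and of the 439 called lower, 137 were (31.2%, and 69.9% of 196). With WT the shared genes were 11 higher (4.23%, and 15.9% of 69) and 3 lower (0.683%, and 27.3% of 11). The lists are of unequal size, and the background is 3.69% called in Gcn2-/- and 0.881% in WT. Genes called lower in Atf4-/- had a median of -2.48 there and -1.26 in Gcn2-/- over the 422 eligible in both, and of -2.49 and -0.16 over the 431 shared with WT. These genes were chosen by their Atf4-/- difference, so a larger size in Atf4-/- is built in and does not compare the strains. Called in neither other strain were 186 of the rises and 297 of the falls. A gene that was not eligible in a strain could not be called there. Of the 260 rises 168 were eligible in WT and 204 in Gcn2-/-, and of the 439 falls 431 and 422, so these counts and the shares above include genes without a call to compare. Across the 8911 genes eligible in both deletions Pearson's r of the differences was 0.65 (Spearman's rho 0.60), and across 8770 genes with WT it was 0.32 (0.23), as a description over genes that share libraries within a strain and are not independent.

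The difference of the responses exceeded 1.5 and its combined error for 636 of 9698 genes against WT (6.56%, 221 higher and 415 lower in Atf4-/-) and for 353 of 9684 against Gcn2-/- (3.65%, 129 and 224). Cytosolic ribosomal proteins gave 36 of the 221 and 30 of the 129. Some falls called in both deletions were larger on the log2 scale in Atf4-/-, as for Hsd3b5 (difference of responses -3.06 ± 2.19), Car3 (-2.66 ± 1.89), Bdh1 (-2.78 ± 1.84) and A1bg (-5.18 ± 2.13). Hsd3b5 ended at like levels, 0.167 FPKM in Atf4-/- and 0.18 in Gcn2-/-, both with intervals that reach 0. Its PBS levels, 105 and 13.1 FPKM, were what differed. Cdkn1a, Cd14 and Icam1, by contrast, differed between the deletions by less than their errors, at 0.29 ± 2.06, -0.01 ± 1.97 and -0.12 ± 1.51, intervals that leave room for several-fold differences.

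**Figure D4:**
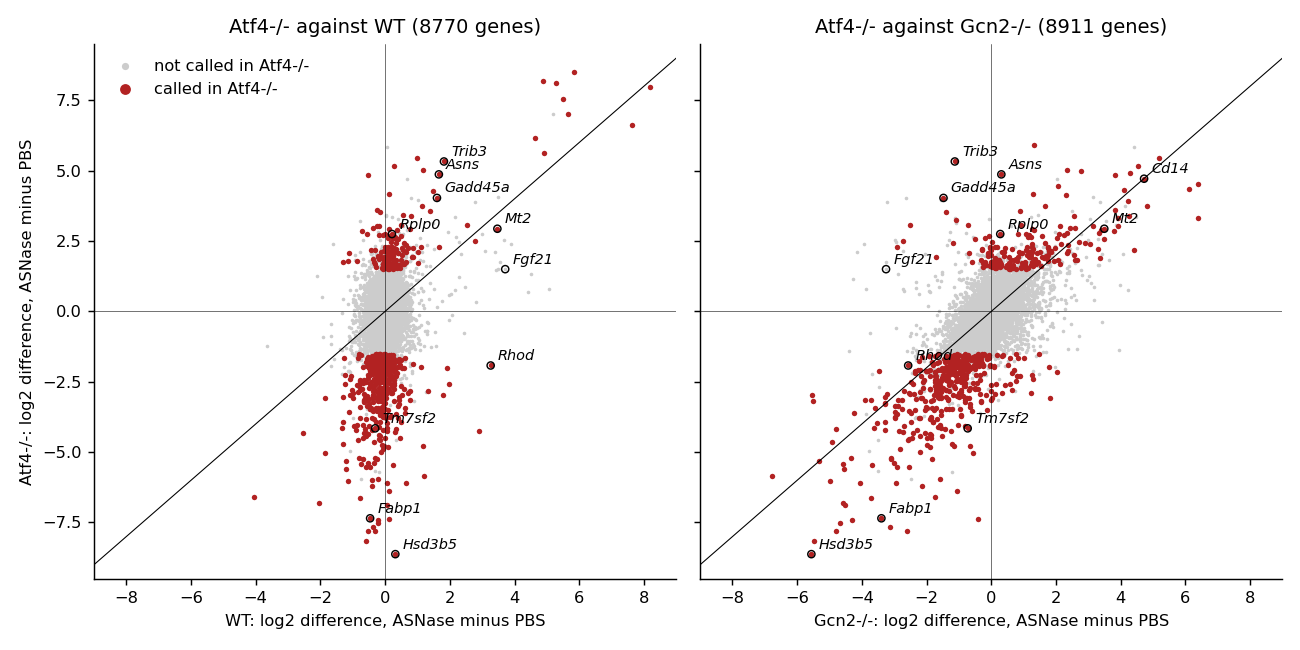
Difference of log2(FPKM + 0.1), ASNase minus PBS, in Atf4-/- (vertical) against WT (left, horizontal, 8770 genes) and against Gcn2-/- (right, horizontal, 8911 genes), with genes called in Atf4-/- in red and the line of equal response. Most called genes lie near 0 in WT and partly along the line in Gcn2-/-, with Trib3, Asns and Rplp0 above it and Tm7sf2 below it.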

How the data were processed

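Per the labels and the study's methods, poly-A libraries of 18 livers were aligned with TopHat to mm10 and quantified with Cuffdiff. The authors deposited 1 FPKM value, lower and upper confidence bounds and a status for each of 37303 genes and 6 groups, each value pooling 3 libraries and normalized by Cuffdiff. The table holds no depth per library, and the read totals the study lists per library were not used here. From these, log2(FPKM + 0.1) differences, calls and list counts were computed with Python 3.11.15, numpy 2.4.6 and pandas 2.3.3, and drawn with matplotlib 3.10.9. Only the step that calls genes was tested on simulated data, in which 200 genes were changed by well over the fold limit. The list counts, strain differences and motif counts were not tested in this way. Biotypes and coordinates are from GENCODE M21, matched by Ensembl ID for 694 of 699 called genes, and promoters from RefSeq.

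The 89 gene lists hold 1810 symbols found in the table, and 11 were not found. The members, lists and limits were chosen with earlier results of these data known. Named genes were a fixed set of stress genes, the 4 called members of each list with the largest difference, the 15 largest rises and falls, the 10 most abundant after ASNase, and 8 with the largest difference from WT in each direction. Other list members are given to show values not called, and some genes that these rules name are not reported here.

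Because FPKM is relative to the library and multi-mapped reads are divided by a model, a few very abundant transcripts or near-identical paralogs can move other values. Alternatives were a pseudocount of 1, FPKM minimums of 1, 10 or none, log2 limits of 1 and 2, no interval condition, a combined error, median-ratio scaling, genes listed at 0 included, and, chosen after seeing the data, protein-coding genes alone and list medians.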

Additional observations from a re-analysis of the deposited data

Results flagged for a closer look

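The genes below were called in opposite directions in Atf4-/- liver and in another strain. With 1 pooled value per group the difference itself was not tested, and each value is the Atf4-/- response minus the other. Against WT these were Rhod, a small GTPase of endosomes (81.5 to 21.4 FPKM in Atf4-/-, 14.1 to 137 in WT, -5.19), the desmoglein Dsg1c (3.12 to 0.436, 1.37 to 5.72, -4.57), the small nuclear RNA U1 (14.9 to 1.84, 3.55 to 12.6, -4.75) and the small nucleolar RNA Snora26 (19.4 to 0.931, 2.92 to 22.7, -7.16). Rhod was 103 and 17.3 FPKM in Gcn2-/-, the same direction as in Atf4-/-.

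Against Gcn2-/- they were Fads3, a desaturase-like gene (2.07 to 8.26 in Atf4-/-, 5.04 to 1.47 in Gcn2-/-, 3.66), Akr1b7, an aldose reductase relative (0.741 to 4.03, 3.54 to 0.388, 5.20), the gene model 1810011O10Rik (19.3 to 4.22, 6.40 to 26.2, -4.19), the small nuclear RNA 7SK (19.9 to 113, 115 to 17, 5.24) and AC027184.1 (4.39 to 37.3, 84.9 to 14.6, 5.59). The small RNAs U1, 7SK and Snora26 lack poly-A tails and have many copies, and the libraries were selected for poly-A RNA.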

How the results depend on the processing

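The counts of 699 called genes, 260 higher and 439 lower, moved with 2 choices. Raising the log2 limit to 2 gave 463 called and 157 higher and ended 28 named calls, those of Creld2, Sdf2l1, Derl3, Eef1b2, Eif2b3, Slc25a13, Cd36, Cd5l and Hmox1 among them, and dropping the interval condition gave 1160 called, 496 higher and 664 lower. Under the other alternatives the total lay between 534 (FPKM over 10) and 848 (combined error), within 1.5 times of 699, and the differences between strains were within 1.5 times of their counts (498 to 711 against WT, 279 to 392 against Gcn2-/-). Median-ratio scaling moved the median of all eligible genes by -0.07 and the share of calls that are higher from 37.2% to 33.9%. Among named genes 0 changed direction; a pseudocount of 1 ended 4 calls, those of Eif2b3, Slc39a4 and Lum among them, scaling those of Gfpt1 and Eif2b3, and without the interval condition Ddit3, Hspa5, Saa1, Saa2, Hamp, Orm1, Lcn2 and Gm14201 would be called. Of 233 list medians recomputed after seeing the data, 6 changed sign, all of lists whose median was at most 0.28 in size, and 2 moved by more than the median error of their genes: that of the acinar markers from 6.62 to 4.01 with a pseudocount of 1, and that of the mTORC1 brakes from -0.28 to 1.19 with FPKM over 10, which leaves fewer genes.

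No paired analysis was possible because the table gives 1 value per group, and leaving out single replicates was not run for the same reason. Precision is limited by the intervals, which span about as much as the value, and by values of 0: 95 genes are listed at 0 after PBS and over 3 FPKM after ASNase, and 42 the reverse.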
